A study of Mus musculus with 5 samples.

Results

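The SOX genes encode transcription factors that bind DNA through an HMG box, and 10 of them were followed here by name in the E10.5 mouse heart: *Sox4*, *Sox11* and *Sox12* of group C, *Sox5*, *Sox6* and *Sox13* of group D, *Sox9* of group E, and *Sox7*, *Sox17* and *Sox18* of group F. All 10 were found among the 13486 genes with tags in the series, and 5 of them had tags in every library. Expression was measured by Tag-seq, which counts short cDNA tags, in 5 libraries of hand-dissected heart tissue. The libraries came from the atrio-ventricular canal (AVC), the outflow tract (OFT), the atria and the ventricles of wild type C57BL/6 embryos, plus the AVC of embryos of the ICR strain that lack *Twist1* (the null). All embryos were at E10.5, Theiler stage 17, and each library pooled tissue of at least 3 litters into 1 sample. Every condition thus had 1 library and no replicate, each test below compares libraries and not conditions, and genotype and strain cannot be told apart in the null.

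SOX9 is needed in the mesenchyme of the endocardial cushions, the swellings of the AVC and OFT that give rise to valves and septa, and it also drives cartilage genes together with SOX5 and SOX6. Proteins of group C act in progenitor cells, and the loss of *Sox4* in mice is known to disturb the outflow tract and its valves. Proteins of group F act in endothelial cells, where they guide arterial and lymphatic fate, and SOX18 is known as an activator of *Prox1*.

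A tag is the stretch of 17 bases that follows an NlaIII site, CATG, and each distinct tag sequence is a tag type. The 10 genes were represented by 52 tag types, of which 44 lay in a 3' UTR, 6 in coding sequence, 1 in a 5' UTR and 1 across coding sequence and UTR. The tag types whose values are described one by one, and the main tag type of each other gene, are printed here in transcript direction, with the site in lower case and the tag in capitals. Each is named by its gene and by the number of bases from the site to the end of the transcript, with its position in GRCm38 and its strand.
*Sox4* at 108, chr13:28949006-28949026, minus strand, 3' UTR: catgCCAGCTAATCCTGTCCG
*Sox4* at 343, chr13:28949241-28949261, minus strand, 3' UTR: catgACAGGCACGAGGACGCC
*Sox4* at 876, chr13:28949774-28949794, minus strand, 3' UTR: catgTTTACACTTCAATCTGC
*Sox4* at 1639, chr13:28950537-28950557, minus strand, 3' UTR: catgTTATCCTGTCTATCTTT
*Sox4* at 1929, chr13:28950827-28950847, minus strand, 3' UTR: catgGGGACCTCGTGGAAGCC
*Sox4* at 2958, chr13:28951856-28951876, minus strand, coding sequence: catgTCCCTGGGCAGTTTCAG
*Sox11* at 375, chr12:27334618-27334638, minus strand, 3' UTR: catgGTGAGTGTTTGTTGCAT
*Sox11* at 951, chr12:27335194-27335214, minus strand, 3' UTR: catgTGGCTTTTATGTGACTT
*Sox11* at 1563, chr12:27335806-27335826, minus strand, 3' UTR: catgGCACTGTTAACAAGTGT
*Sox11* at 3621, chr12:27337864-27337884, minus strand, 3' UTR: catgCTCTTAGCAGTCAGGAT
*Sox11* at 4448, chr12:27338691-27338711, minus strand, 3' UTR: catgGTGAGGAAGGAACTTTT
*Sox11* at 5926, chr12:27340169-27340189, minus strand, 3' UTR: catgCAAATATGTTGGTACGT
*Sox12* at 61, chr2:152393651-152393671, minus strand, 3' UTR: catgCCCAACACTGCCTTTTT
*Sox12* at 1439, chr2:152395029-152395049, minus strand, 3' UTR: catgTGAGTGAAGAGATGTCA
*Sox12* at 1982, chr2:152395572-152395592, minus strand, 3' UTR: catgTCTAAACAAACTTGGCT
*Sox12* at 2608, chr2:152396198-152396218, minus strand, 3' UTR: catgCTTGATGCTTCTTGGAG
*Sox9* at 486, chr11:112787275-112787295, plus strand, 3' UTR: catgCCTCTGCAAGTGTGTGT
*Sox9* at 1014, chr11:112786747-112786767, plus strand, 3' UTR: catgTGCTAAAATTATTTATT
*Sox9* at 1921, chr11:112785840-112785860, plus strand, 3' UTR: catgGAGGACGATTGGAGAAT
*Sox9* at 2356, chr11:112785405-112785425, plus strand, coding sequence: catgTACACCCCCATCGCTGA
*Sox5* at 203, chr6:143828607-143828627, minus strand, 3' UTR: catgCCACAATAAGAATAAAA
*Sox6* at 3208, chr7:115474531-115474551, minus strand, 3' UTR: catgCCAAAATAATATTCTGG
*Sox13* at 309, chr1:133382591-133382611, minus strand, 3' UTR: catgAGCTTAGGGTGGCTTCT
*Sox7* at 64, chr14:63950669-63950689, plus strand, 3' UTR: catgGAACAGTTATGAAATTG
*Sox17* at 40, chr1:4491409-4491429, minus strand, 3' UTR: catgCGTGTTTTCTCAATCTT
*Sox18* at 339, chr2:181670154-181670174, minus strand, 3' UTR: catgTGGCCAAGTGGCAGAGT

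The libraries held between 4223810 tags (ventricles) and 12977237 tags (*Twist1* null AVC), and no tag type with fewer than 6 tags was listed, which corresponds to 0.462 tags per 1000000 listed tags (TPM) in the null and to 0.988 to 1.42 TPM in the others. *Twist1* itself stood at 918 TPM in the AVC, 299 TPM in the OFT, 63.4 TPM in the atria, 55.9 TPM in the ventricles and 4.55 TPM in the null, so that library matched its label. Haemoglobin tags made up 21.5% of the atria library, 4.67% of the ventricles, 2.73% of the null, 0.242% of the AVC and 0.307% of the OFT. The median log2 ratio of all genes was 1.23 for the AVC against the chambers and 1.07 for the OFT against the chambers. TMM normalization, which scales libraries on the bulk of their genes, lowered the log2 ratios in those comparisons by 0.95 and 0.86 and raised them by 0.24 for the null against the AVC.

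The SOX genes differed in their profiles over the libraries. *Sox9* and all 3 genes of group D were high in the AVC and OFT and near the listing limit or not listed in the atria and ventricles. The genes of group C were listed in every library. In group F, *Sox7* was highest in the ventricles. *Sox17* and *Sox18* were highest in the OFT and, like group D, near the listing limit or not listed in the chambers. For *Sox18* the null, at 7.17 TPM, lay within counting error of the OFT at 7.40 TPM. *Sox6*, *Sox11* and *Sox13* were also highest in the OFT, but closer to their AVC level. In all 7 of the 10 genes were called higher in the AVC than in the summed atria and ventricles with the exact test of edgeR, two-sided, at an unadjusted exact p under 0.05, against 43.4% of the 12503 genes tested, and none was called lower, against 8.12%. For the OFT the count was also 7 of 10 higher, against 40.6% of 12451 genes, and none lower, against 8.88%. With TMM normalization the counts were 5 of 10 higher and none lower in the AVC, against 25.6% and 17.5%, and 6 of 10 higher and 1 lower in the OFT, against 26.2% and 17.7%. In such pooled tissue, fewer cells of a type and less RNA per cell cannot be told apart.

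**Figure D1:**
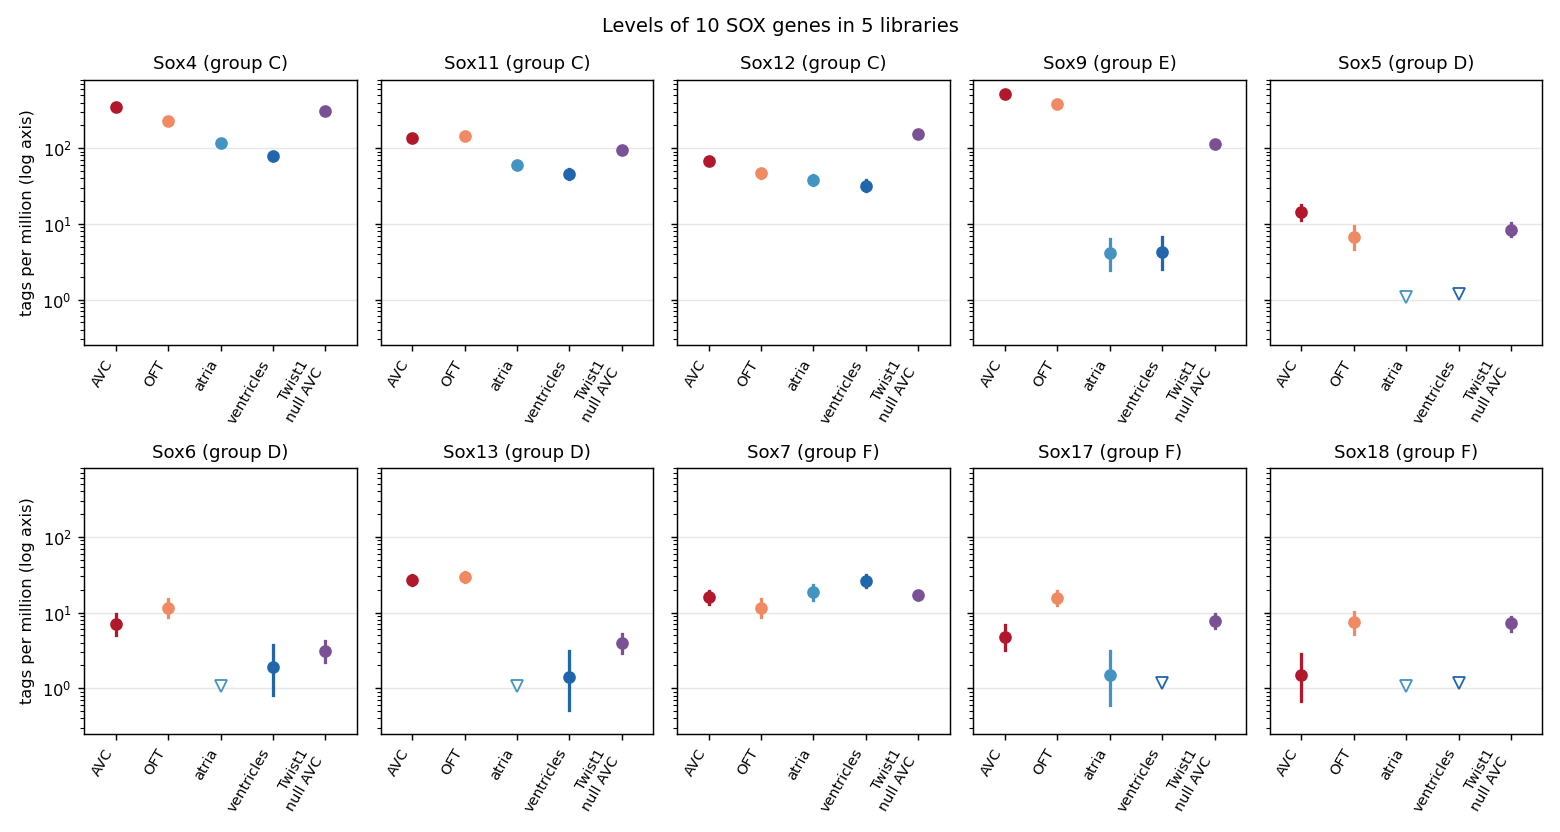
TPM on a log axis for each of the 10 genes in the 5 libraries, with 1 point per library and bars for the exact 95% binomial interval of the count, which covers counting error only. Open triangles mark libraries in which no tag was listed, drawn at the level of 5 tags. *Sox9* stands at 514 and 377 TPM in the AVC and OFT and at about 4 TPM in both chambers, and *Sox7* is the single gene whose highest level is in the ventricles.

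*Sox9* stood at 514 TPM in the AVC, 377 TPM in the OFT, 4.07 TPM in the atria, 4.26 TPM in the ventricles and 113.5 TPM in the null. The AVC and OFT stood far above both chambers, which lay within counting error of each other (exact p = 1.0). Its log2 ratio to the chambers was 5.71 above the median of all genes in the AVC and 5.43 above it in the OFT. The AVC library exceeded the summed chambers 124-fold (95% counting interval 89.4 to 175.8, exact p = 1.79e-13) and the OFT library 90.6-fold (65.5 to 129, exact p = 2.48e-12). Both calls remained in each of the 19 alternatives run for them. Among the 10 genes *Sox9* had the largest log2 ratio in both comparisons among those with a tag in the chambers, and 90.8% of all genes had a smaller ratio in the AVC.

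In the AVC and OFT *Sox9* was read from the same 6 tag types, while the atria and ventricles kept a single one. The tag at 486 bases, at the site nearest the 3' end, gave 1601 tags for the AVC, 1070 tags for the OFT, 19 tags for the atria, 18 tags for the ventricles and 661 tags for the null. The tag at 1921 bases gave 1283 tags for the AVC, 739 tags for the OFT and 290 tags for the null, and was not listed in either chamber. The first of these was 63.3-fold higher in the AVC than in the chambers, and the other was at least 188-fold higher, with 5 tags set for each chamber library.

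*Sox13*, a group D gene, was listed at 27.0 TPM in the AVC, 29.6 TPM in the OFT, 0 in the atria, 1.42 TPM in the ventricles and 3.93 TPM in the null, all from the tag at 309 bases. The AVC and OFT lay within counting error of each other and far above both chambers. The ratio to the chambers was 40.0-fold (18.0 to 110.6, exact p = 7.75e-08) in the AVC and 43.9-fold (19.7 to 121, exact p = 2.78e-08) in the OFT, on 6 tags in the chambers.

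*Sox5* stood at 14.2 TPM in the AVC, 6.64 TPM in the OFT and 8.40 TPM in the null and was not listed in either chamber. With 5 tags set for each missing tag type, the AVC level of *Sox5* was at least 3.15-fold higher than that of the chambers (exact p = 1.12e-08) and the OFT level at least 2.95-fold higher (exact p = 4.52e-06). With those 5 tags used as counts in the test, the call was lost in the OFT (exact p = 0.0704). *Sox6* stood at 7.08 TPM in the AVC, 11.6 TPM in the OFT, 0 in the atria, 1.89 TPM in the ventricles and 3.08 TPM in the null. The ratio of *Sox6* to the chambers was 7.87-fold in the AVC (3.66 to 19.4, exact p = 0.00145) and 12.9-fold in the OFT (6.14 to 31.1, exact p = 0.000114). An offset for the first 2 bases of the tag ended the call for the AVC (exact p = 0.122).

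None of the group D genes reached 2 TPM in a chamber. Their summed level was 48.2 TPM in the AVC, 47.8 TPM in the OFT, 0 in the atria, 3.31 TPM in the ventricles and 15.4 TPM in the null. The summed level of 12 cushion mesenchyme markers was 2756 TPM in the AVC, 3593 TPM in the OFT, 384 TPM in the atria, 367 TPM in the ventricles and 732 TPM in the null. That sum was also highest in the AVC and OFT, and its part in the SOX result was not tested.

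*Sox4* stood at 346 TPM in the AVC, 231 TPM in the OFT, 116 TPM in the atria, 78.6 TPM in the ventricles and 309.8 TPM in the null. The AVC was 3.53-fold above the chambers (3.26 to 3.82, exact p = 0.0142), which lay 0.59 above the median log2 ratio of all genes, and the call was lost with TMM normalization (exact p = 0.233). The OFT was 2.35-fold above the chambers (2.16 to 2.57, exact p = 0.0916) and was not called. The 4 other libraries followed the AVC in the order null, OFT, atria and ventricles, with no overlap of counting intervals, but no neighbouring pair in this order was called (exact p of at least 0.172).

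The *Sox4* values depend on how far the 3' end of the gene model reaches, since a model that ended more than 1700 bases before the transcript end used here would leave out the tag types at 1639 bases and closer to it. The tag types beyond 1700 bases summed to 98.8 TPM in the AVC, 86.6 TPM in the OFT and 19.6 TPM in the null, and neither chamber library listed any of them. For this part of *Sox4*, split off after the data were seen, the AVC was at least 17.6-fold above the chambers (exact p = 2.11e-15) and the OFT at least 15.4-fold (exact p = 1.12e-14). The tag types within 1700 bases held all *Sox4* tags of the chambers, at 115.7 TPM in the atria and 78.6 TPM in the ventricles, against 247 TPM in the AVC, 144 TPM in the OFT and 290.1 TPM in the null. In that part neither cushion region was called against the chambers (exact p = 0.0689 for the AVC and 0.443 for the OFT).

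*Sox11* stood at 135 TPM in the AVC, 145 TPM in the OFT, 59.6 TPM in the atria, 45.5 TPM in the ventricles and 95.01 TPM in the null. It was 2.56-fold higher in the AVC than in the chambers (2.29 to 2.88, exact p = 0.0650) and 2.74-fold higher in the OFT (2.44 to 3.08, exact p = 0.0489). The OFT call was lost after Benjamini-Hochberg adjustment over all genes (adjusted p = 0.0992), with TMM normalization (exact p = 0.413) and with the atria alone as control (exact p = 0.0822). These ratios lay 0.13 and 0.39 above the median log2 ratio of all genes.

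*Sox12* stood at 66.8 TPM in the AVC, 46.5 TPM in the OFT, 37.5 TPM in the atria, 32.0 TPM in the ventricles and 153 TPM in the null. Its ratios to the chambers, 1.92-fold in the AVC (exact p = 0.201) and 1.33-fold in the OFT (exact p = 0.572), were below the median of all genes and turned to lower ones with TMM normalization. The null was the highest library for this gene, without overlap of counting intervals.

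Single tag types of group C differed between the cushion regions and the chambers more than the sums did. *Sox4* was read from 10 tag types in the AVC and 10 in the OFT, but from 2 in the atria and 3 in the ventricles, all within 1 kb of the 3' end. The *Sox4* tag at 343 bases was 1.27-fold higher in the AVC than in the chambers, the one at 108 bases 3.38-fold higher, and the coding tag at 2958 bases at least 49.5-fold higher. For *Sox11* the chambers listed 4 tag types, among them those at 1563 and 5926 bases. The *Sox11* tag at 5926 bases was 14.3 TPM in the AVC, 14.8 TPM in the OFT, 24.0 TPM in the atria and 21.8 TPM in the ventricles, and it was the only one of 12 tag types that was lower in the AVC than in the chambers. The *Sox11* tag at 375 bases was 8.93-fold higher in the AVC, and the one at 3621 bases, counted 101 times in the AVC and 102 in the OFT, was listed in neither chamber.

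*Sox12* showed the same split, since its tag at 1439 bases was 1.32-fold higher in the AVC than in the chambers and its 3 other tag types in the AVC together had 7 tags in the chambers. Without that most abundant tag type *Sox12* was called higher in the AVC (log2 ratio 4.76, exact p = 3.96e-07) and in the OFT (log2 ratio 4.18, exact p = 1.145e-05). Among all genes this setting called 58.7% (AVC) and 57.8% (OFT) higher, with median log2 ratios of 2.38 and 2.36. Of the 45 SOX tag types listed in the AVC or OFT 31, or 68.9%, were listed in neither chamber. Over all genes this share was 52.7% of 34558 tag types. The chamber libraries also held fewer genes in all, 9777 and 9721, than the AVC and OFT, with 11915 and 11702, and the part of depth and of haemoglobin tags in this difference was not tested.

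**Figure D2:**
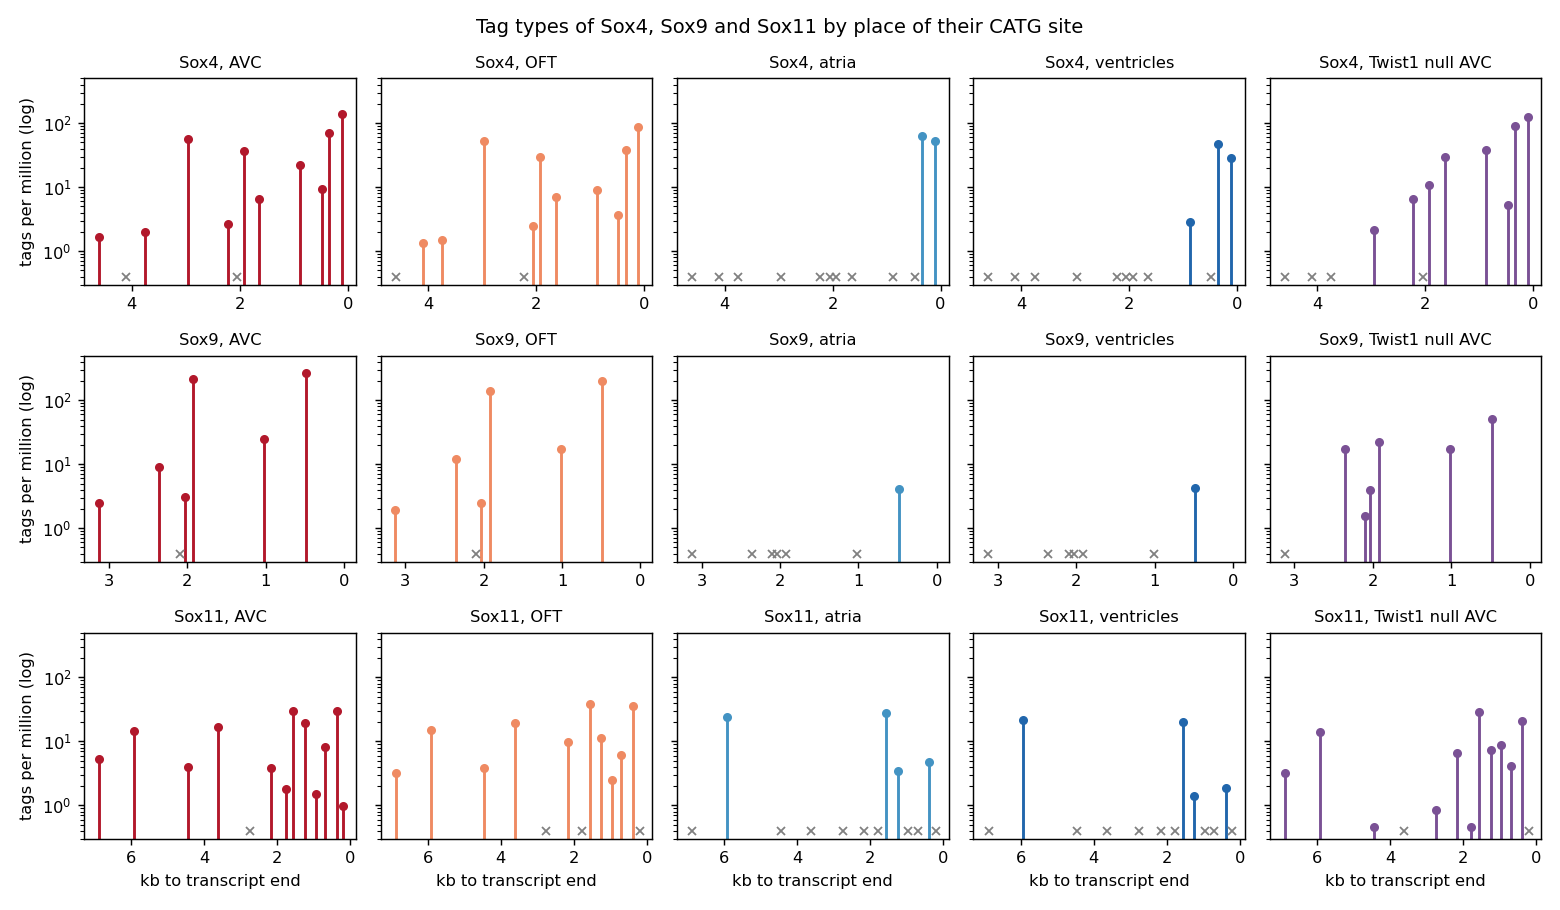
TPM on a log axis for each tag type of *Sox4*, *Sox9* and *Sox11* in the 5 libraries, against the distance in kilobases from its site to the end of the transcript, which lies on the right. Crosses at the bottom mark tag types not listed in that library. The atria and ventricles list 2 and 3 tag types of *Sox4*, 1 of *Sox9* and 4 of *Sox11*, where the AVC lists 10, 6 and 12.

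*Sox7*, a group F gene, stood at 16.0 TPM in the AVC, 11.6 TPM in the OFT, 18.4 TPM in the atria, 26.0 TPM in the ventricles and 17.1 TPM in the null, all from the tag at 64 bases. Each neighbouring pair of libraries in the order of these levels had overlapping counting intervals. *Sox7* was 0.724-fold of the chamber level in the AVC (0.562 to 0.928, exact p = 0.535) and 0.525-fold in the OFT (0.387 to 0.703, exact p = 0.229). In the OFT 15.8% of all genes had a smaller ratio, and TMM normalization led to a call as lower (exact p = 0.0211).

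*Sox17* stood at 4.77 TPM in the AVC, 15.6 TPM in the OFT, 1.5 TPM in the atria, 0 in the ventricles and 7.78 TPM in the null. It was 6.06-fold higher in the AVC than in the chambers (2.60 to 16.4, exact p = 0.00580) and 19.8-fold higher in the OFT (9.18 to 50.7, exact p = 7.64e-06), on 7 tags in the chambers. The AVC call was lost with TMM normalization (exact p = 0.0968) and with the atria alone as control (exact p = 0.0842). *Sox18* stood at 1.48 TPM in the AVC, 7.40 TPM in the OFT and 7.17 TPM in the null and was not listed in the chambers. Against the chambers the AVC level of *Sox18* was at least 1.32-fold higher (exact p = 0.0113, on 9 tags) and the OFT level at least 6.58-fold higher (exact p = 1.93e-06). With 5 tags used as counts for each chamber library the AVC call was lost (exact p = 0.758), and the OFT call was kept.

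Between the cushion regions, *Sox17* was 3.26-fold higher in the OFT than in the AVC (2.11 to 5.17, exact p = 0.0360) and *Sox18* 4.998-fold higher (2.38 to 11.7, exact p = 0.0111). No other of the 10 genes was called, and over all 12541 genes 5.22% were called higher and 7.35% lower. After Benjamini-Hochberg adjustment over all genes neither was called (adjusted p = 0.324 and 0.162). The levels of 12 endothelial markers summed to 617 TPM in the AVC, 672 TPM in the OFT, 338 TPM in the atria, 405 TPM in the ventricles and 609 TPM in the null. Between the AVC and OFT this sum differed less than the levels of *Sox17* and *Sox18* did, and its part in the result was not tested. The other 8 genes had ratios of the OFT to the AVC between 0.469-fold for *Sox5* and 1.64-fold for *Sox6*.

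Between the chambers, *Sox6* was called higher in the ventricles, with 8 tags against 0 (exact p = 0.0254), and *Sox17* higher in the atria, with 7 tags against 0 (exact p = 0.0391). Of 10705 genes 11.1% were called higher in the ventricles and 9.03% lower. Both differences rest on counts next to the listing limit, and both calls were lost with 5 tags used for the missing tag type (exact p = 0.683 and 0.829).

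**Figure D3:**
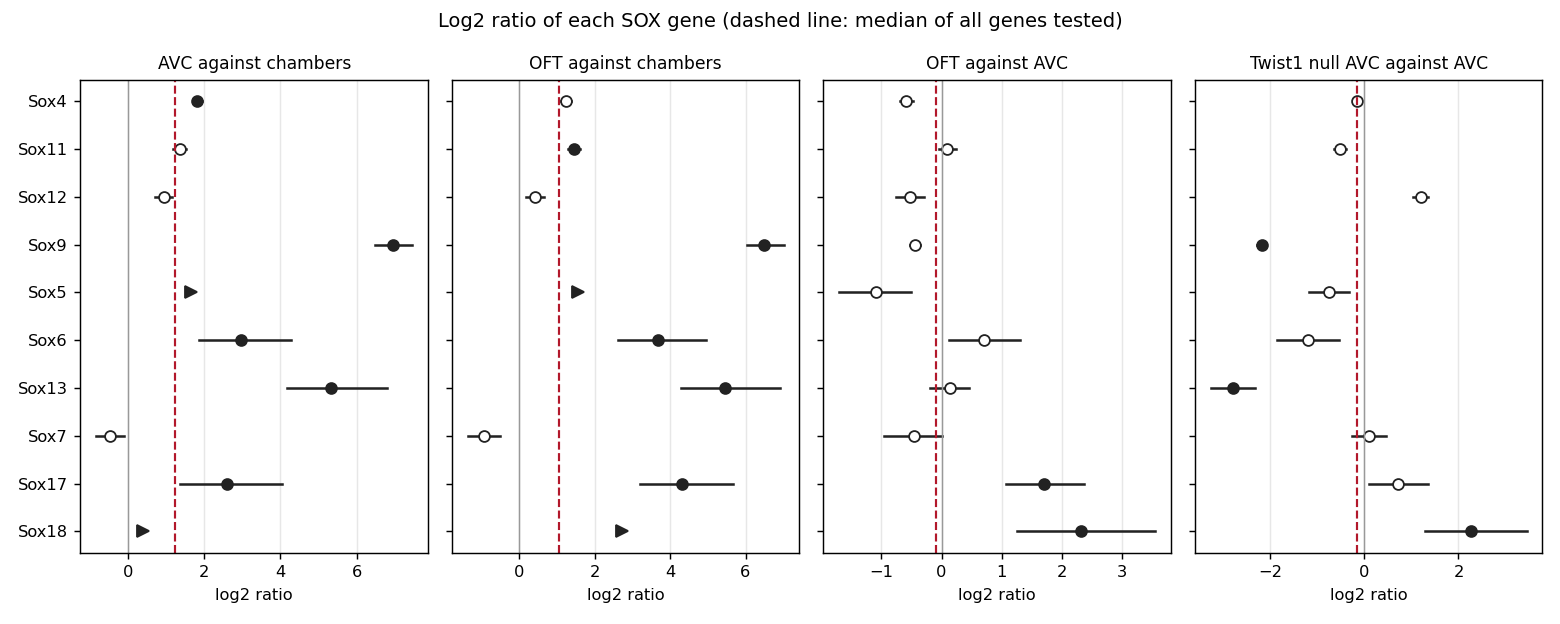
Log2 ratio of each of the 10 genes in 4 comparisons of libraries, with bars for the 95% counting interval, filled symbols for calls at an unadjusted exact p under 0.05 and open symbols for the rest. Arrowheads are lower bounds for genes without tags in the chambers, and the dashed line is the median of all genes tested (1.23 and 1.07 against the chambers, -0.10 for the OFT against the AVC and -0.16 for the null against the AVC). *Sox9*, *Sox13*, *Sox6*, *Sox17*, *Sox4*, *Sox11* and the bounds of *Sox5* lie to the right of that line in both chamber comparisons. In the null *Sox9* and *Sox13* lie furthest to its left, *Sox5*, *Sox6* and *Sox11* also lie to its left, and *Sox4* lies about on it.

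In the *Twist1* null AVC, *Sox9* and *Sox13* were called lower than in the wild type AVC and *Sox18* was called higher, while the other 7 genes were not called. Over all 12963 genes 12.7% were called lower and 11.9% higher. *Sox9* was at 0.221-fold of the wild type level (0.207 to 0.235, exact p = 0.00366, adjusted p = 0.0437), a log2 ratio 2.02 below the median of all genes, and 6.23% of genes had a smaller ratio. *Sox13* was at 0.146-fold (0.104 to 0.201, exact p = 0.000513, adjusted p = 0.0154). *Sox18* was 4.84-fold higher (2.44 to 10.9, exact p = 0.0115), on 9 tags in the wild type AVC, and was not called after adjustment over all genes (adjusted p = 0.0870). Each of these differences exceeded counting error, but so did that of every gene not called except *Sox7*. A dispersion of 0.4 in place of 0.12 ended the calls of *Sox9* (exact p = 0.123), *Sox13* (exact p = 0.06025) and *Sox18* (exact p = 0.130). The null library and the AVC library differ in strain as well as in genotype.

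In the order of its levels *Sox9* in the null lay between the OFT and the chambers, at 113.5 TPM against 377 TPM in the OFT (exact p = 0.0192) and 4.26 TPM in the ventricles (exact p = 5.66e-08). *Sox13* in the null, at 3.93 TPM, was not distinguished from the ventricles at 1.42 TPM (exact p = 0.122). It was higher than in the atria, where it was not listed (exact p = 0.000219). *Sox5* was at 0.593-fold of the wild type AVC (0.443 to 0.797, exact p = 0.325) and *Sox6* at 0.435-fold (0.276 to 0.686, exact p = 0.145), so that all 3 group D genes were below the wild type and 1 of them was called. The call of *Sox6* depended on the setting, since it was called lower in 5 alternatives. Among them were more than 10 tags per tag type (log2 ratio -2.62, exact p = 0.00350) and libraries thinned to equal depth (log2 ratio -2.60, exact p = 0.00622). Without its most abundant tag type *Sox6* was called higher (log2 ratio 7.21, exact p = 0.000836). That direction was fixed in advance, since the wild type AVC listed no other *Sox6* tag type and was left without tags. *Sox17* was at 1.63-fold (1.07 to 2.56, exact p = 0.397) and *Sox7* at 1.07-fold (0.840 to 1.38, exact p = 0.905).

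Of group C, *Sox4* was at 0.895-fold of the wild type AVC (0.849 to 0.944, exact p = 0.825), a difference that turned to slightly higher with TMM normalization. This sum joined parts with unlike values, since the *Sox4* tag types beyond 1700 bases from the transcript end were at 0.199-fold of the wild type AVC and were called lower (exact p = 0.00222, adjusted p = 0.0311), whereas those within 1700 bases were at 1.17-fold (exact p = 0.749). With TMM normalization the former remained called (exact p = 0.00560) and had an adjusted p of 0.0540. The split was chosen after the data were seen, so these p do not come from a planned test. The tag types beyond 1700 bases did not all fall in the null. Most of their drop lay in the tag at 2958 bases, at 55.6 TPM in the AVC and 2.16 TPM in the null. *Sox11* was at 0.701-fold (0.642 to 0.767, exact p = 0.479) and *Sox12* at 2.29-fold (2.06 to 2.56, exact p = 0.102). As sums over all their tag types none of these genes was called, and the log2 ratio of *Sox12* lay 1.35 above the median of all genes, with 81.8% of genes below it.

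The *Sox4* sums of the null and the wild type AVC were close, but single tag types differed strongly. The coding tag at 2958 bases gave 338 tags for the AVC, 273 tags for the OFT and 28 tags for the null, or 55.6, 51.8 and 2.16 TPM. The tag at 1639 bases gave 40 tags for the AVC, 37 tags for the OFT and 385 tags for the null, or 6.58, 7.02 and 29.7 TPM. In the null the first was thus 25.8-fold lower and the other 4.51-fold higher, whereas the tags at 108 and 343 bases stayed at 0.904-fold and 1.28-fold. The *Sox4* tag at 876 bases was 1.77-fold higher in the null, with 503 tags against 133, and the one at 1929 bases was 3.37-fold lower, with 142 tags against 224.

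In *Sox9* the tags also differed among themselves. Those at 486 and 1921 bases were 5.17-fold and 9.45-fold lower in the null, the tag at 1014 bases was 0.696-fold, and the coding tag at 2356 bases, at 9.05 TPM in the AVC and 17.5 TPM in the null, was 1.93-fold higher. *Sox11* lost its tag at 3621 bases, which was listed 101 times in the AVC and not at all in the null, or at least 43.15-fold lower, while its tags at 1563 and 5926 bases stood at 0.968-fold and 0.974-fold. The *Sox11* tag at 4448 bases was 8.54-fold lower in the null, with 6 tags against 24, and the one at 951 bases was 5.83-fold higher, with 112 tags against 9. The higher sum of *Sox12* came mostly from its tag at 1439 bases, which was 45.1 TPM in the AVC and 127 TPM in the null, or 2.82-fold higher, and in part from the tag at 1982 bases, at 13.2 and 22.4 TPM. The *Sox12* tag at 2608 bases was 6.05-fold lower in the null, with 6 tags against 17. At its site nearest the 3' end *Sox12* was lower in the null, at 2.62 TPM against 5.76 TPM.

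The bases of a tag moved with the null comparison over all genes. The median log2 ratio of tag types that begin with TT was 0.98 over 1243 types, and that of types beginning with TA was 0.73 over 1258, whereas types beginning with CC had -1.04 over 1087 and those beginning with GA had -0.72 over 1798. The *Sox4* tag at 1639 bases begins with TT, the *Sox9* tag at 2356 bases with TA, and the *Sox9* tags at 486 and 1921 bases with CC and GA. Other tags departed from the median of their first bases, as the *Sox4* tag at 108 bases begins with CC and was 0.904-fold, and the *Sox9* tag at 1014 bases begins with TG, for which the median was 0.48, and was 0.696-fold. With an offset for the first 2 bases *Sox9* remained called lower in the null (log2 ratio -1.53, exact p = 0.0371), and with an offset for the number of G and C bases, chosen after the data were seen, it was -1.69 (exact p = 0.0223). The *Sox4* tag at 2958 bases begins with TC, for which the median was 0.12. The part of strain differences in single tag types was not tested.

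**Figure D4:**
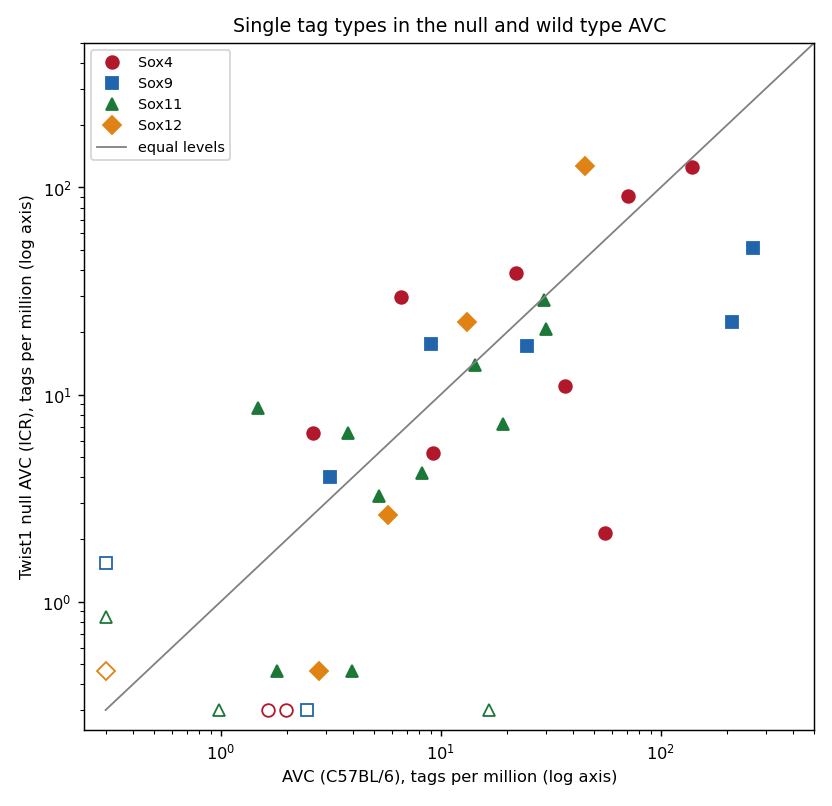
TPM of each tag type of *Sox4*, *Sox9*, *Sox11* and *Sox12* in the wild type AVC (x axis) and in the *Twist1* null AVC (y axis), both on log axes, with a grey line at equal levels. Open symbols at the edges were not listed in one of the libraries. The 2 most abundant *Sox9* tag types lie below the line, and the tag types of *Sox4* lie on both sides of it, from 25.8-fold lower to 4.51-fold higher in the null.

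Genes that SOX proteins are known to act on, or to act with, were taken from lists. Of 12 cartilage-type matrix genes, targets of SOX9, SOX5 and SOX6, 7 could be tested in the AVC and 5 were called higher than in the chambers and none lower, with a median log2 ratio of 3.25 against 1.23 for all genes. Over all genes 43.4% were called higher and 8.12% lower, and with TMM normalization 4 matrix genes were called higher, against 25.6% of all genes. *Col2a1*, the main cartilage collagen, stood at 212 TPM in the AVC, 673 TPM in the OFT, 0 in the atria, 6.63 TPM in the ventricles and 88.6 TPM in the null. *Col9a3*, a chain of collagen IX, stood at 131 TPM in the AVC, 42.5 TPM in the OFT, 8.79 TPM in the atria, 2.60 TPM in the ventricles and 11.9 TPM in the null. *Hapln1*, a link protein of the hyaluronan matrix, stood at 1045 TPM in the AVC, 568 TPM in the OFT, 195 TPM in the atria, 242 TPM in the ventricles and 605 TPM in the null. Each of these genes was lowest in the atria or the ventricles.

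In the null 2 of 7 matrix genes were called lower than in the wild type AVC, *Col9a2* and *Col9a3*, and none higher, with a median log2 ratio of -0.99 against -0.16 for all genes, of which 12.7% were called lower and 11.9% higher. *Col9a3* was at 0.0907-fold (exact p = 1.49e-05). *Col2a1* was at 0.417-fold (exact p = 0.0846) and *Hapln1* at 0.579-fold (exact p = 0.276), and neither was called. In the OFT 6 of 9 matrix genes were called higher than in the chambers and none lower, against 40.6% and 8.88% of all genes, and with TMM normalization 5 were called higher and 1 lower, against 26.2% and 17.7%. Of the 12 cushion mesenchyme markers 8 were called lower in the null, against 12.7% of all genes, or 7 with TMM normalization. Several of these markers were already reported as lower in this library by the paper. The list was chosen with such results known, so this count is no independent support. Of 11 erythroid markers 6 were called higher in the null, against 11.9% of all genes, and none lower, and their summed level was 27398 TPM in the null and 2436 TPM in the AVC. The part of either list in the *Sox9* result was not tested.

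Among 9 targets and partners of group F proteins in endothelium, 8 could be tested, 6 of them were called higher than in the chambers for each cushion region, and none was called lower. Among all genes tested this share was 43.4% (AVC) and 40.6% (OFT). With TMM normalization 4 and 5 genes of the list were called higher, against 25.6% and 26.2%. *Cdh5*, the cadherin of endothelial junctions, stood at 90.9 TPM in the AVC, 108.8 TPM in the OFT, 8.57 TPM in the atria, 12.8 TPM in the ventricles and 81.8 TPM in the null. *Efnb2*, an arterial ephrin, stood at 37.9 TPM in the AVC, 93.8 TPM in the OFT, 15.0 TPM in the atria, 11.8 TPM in the ventricles and 51.7 TPM in the null. In the null 1 of 9 of these genes was called lower, the Notch ligand gene *Dll4*, and none higher, which is close to the 12.7% of all genes called lower.

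All 3 targets of group C on the list, *Tead2*, *Tubb3* and *Ezh2*, were called higher in the AVC and in the OFT than in the chambers, against 43.4% and 40.6% of all genes, and also with TMM normalization. *Tead2*, a partner of YAP in Hippo signalling, stood at 120 TPM in the AVC, 96.8 TPM in the OFT, 7.29 TPM in the atria, 10.9 TPM in the ventricles and 44.4 TPM in the null. In the null none of the 3 was called at an unadjusted exact p under 0.05 by edgeR, also with TMM normalization, and *Tead2* was at 0.371-fold (exact p = 0.0524).

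Of 14 genes listed as signals upstream of cushion SOX genes, 11 were called higher and 2 lower in the AVC than in the chambers, against 43.4% and 8.12% of all genes, and with TMM normalization 9 were called higher and 2 lower, against 25.6% and 17.5%. The 2 lower ones were *Hey1*, a Notch target, and *Ctnnb1*, which encodes beta-catenin and stood at 67.65 TPM in the AVC, 94.9 TPM in the OFT, 354 TPM in the atria, 648 TPM in the ventricles and 142 TPM in the null. In the null *Bmp2*, *Snai1* and *Snai2* were called lower and *Bmp4* higher, against 12.7% and 11.9% of all genes. *Twist1*, also on the list, was called lower too, but its loss in this library fixed that call in advance. *Tgfb2*, a ligand that promotes cushion transformation, stood at 172 TPM in the AVC and 266 TPM in the null (1.54-fold, exact p = 0.386).

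The genes closest in profile to each SOX gene were found by the root mean square difference of centred log2(TPM + 1) over the 5 libraries, among 10197 genes. *Sox11* had the closest neighbours, *Lmnb2* at a difference of 0.0380 and *Dusp1* at 0.0482, and *Sox4* was closest to *Pole* (0.0638) and *Fam78a* (0.0735). *Sox7* was closest to *Rnaseh2c* (0.0683) and *Dcp2* (0.0691), and *Sox12* to *Pik3c2a* (0.0860) and *Sgpl1* (0.125). *Sox5* was closest to *Rem2* (0.105) and *Slc15a4* (0.116), *Sox6* to *Rhebl1* (0.111) and *Arid4a* (0.125), and *Sox13* to *Zfp90* (0.134) and *Pdlim3* (0.159). *Sox18* was closest to *Fgf10* (0.128) and *Slc10a7* (0.154). *Sox9* and *Sox17* stood furthest from their nearest genes, *Gsk3b* (0.222) and *Alpk3* (0.266) for *Sox9*, and *Atg7* (0.305) and *Ankrd10* (0.337) for *Sox17*. With 5 libraries such a likeness describes the profiles and no more.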

How the data were processed

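The deposited values are raw counts per tag type. The authors kept the first bases of quality-filtered reads and tag types with more than 5 tags per library. The submitters' notes name mm9, and coordinates here are GRCm38 from GENCODE M21. Virtual tags were taken at every NlaIII site of 33363 RefSeq-linked transcripts, a tag was assigned when it matched the sense strand of 1 gene, and tags were summed per gene. TPM are tags per 1000000 listed tags, with totals of 6075421 (AVC), 5267618 (OFT), 4666514 (atria), 4223810 (ventricles) and 12977237 (null).

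Libraries were compared in edgeR 4.0.16 (R 4.3.3), whose exact test was used two-sided, with library totals as sizes and a dispersion of 0.12, the value in the study's methods. Those methods name scaling to library size but no other normalization, and values with TMM normalization are given beside those with totals. An unadjusted exact p under 0.05 was a call, and adjusted p are Benjamini-Hochberg values over all genes tested. Intervals are exact 95% binomial ones and cover counting error only. A ratio to a gene not listed sets 5 tags for each missing tag type and library, while the exact p beside it comes from the test without them. With edgeR on simulated data, 61.0 to 66.5% of genes changed 4-fold were recovered over the 5 comparisons, and 3.94 to 4.55% of unchanged genes were called. Those counts were drawn with the dispersion of 0.12 that the test assumed, so a share of false calls near the threshold was built in. They held no shift of most genes and no listing limit, and they do not measure the error of the calls made here. Named genes were the 10 SOX genes, up to 4 of highest summed TPM in each list, and the 2 of nearest profile per SOX gene. *Col9a2*, *Dll4*, *Hey1*, *Bmp2*, *Bmp4*, *Snai1* and *Snai2* were named after their calls were seen. The SOX genes and lists were chosen with earlier results of these data known. DESeq2 1.42.0 size factors were 1 of 18 alternative settings, and the offset for G and C bases and the split of *Sox4* at 1700 bases were chosen after seeing the data. Python 3.11.15, pandas 2.3.3, numpy 2.4.6 and scipy 1.17.1 were used. No genome sequence was used, so whether a tag occurs elsewhere in the genome was not examined.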

Additional observations from a re-analysis of the deposited data

Results flagged for a closer look

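Some tags of the 10 genes fall outside the sums above, and the highest library of each kind is given because its level exceeds what a library may hold unlisted. Tags antisense to *Sox9* with no sense match reached 160.3 TPM in the AVC, with 108 TPM in the OFT, 0 in the atria, 1.66 TPM in the ventricles and 56.3 TPM in the null, from 5 tag types. This order of libraries was that of the sense tags of *Sox9*. Tags antisense to *Sox4* reached 232.3 TPM in the null, with 32.1 TPM in the AVC, 31.3 TPM in the OFT, 166 TPM in the atria and 168 TPM in the ventricles, and most were of 1 tag type made mainly of T. Tags antisense to *Sox12* reached 74.05 TPM in the null, against 10.4 TPM in the AVC, from 1 tag type.

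Antisense tags of *Sox11* reached 32.44 TPM in the null, against 22.2 TPM in the AVC, 30.0 TPM in the OFT, 9.64 TPM in the atria and 1.42 TPM in the ventricles. Those of *Sox17* reached 9.682 TPM in the OFT, those of *Sox5* 8.014 TPM, those of *Sox7* 6.319 TPM and those of *Sox6* 1.926 TPM in the null. A sense tag of a *Sox6* transcript not linked to RefSeq reached 16.13 TPM in the AVC, with 7.78 TPM in the OFT, 5.78 TPM in the null and none in the chambers. A tag of repeated CA that *Sox7* shares with other genes reached 14.48 TPM in the AVC.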

How the results depend on the processing

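All values rest on 1 library per condition, so no spread between embryos enters any of them, and tag types under 6 tags, or single tag types of low level, limit what can be told of *Sox5*, *Sox6*, *Sox13*, *Sox17* and *Sox18*. No paired analysis was possible because each group has 1 library. Log2 ratios that changed sign were all of genes not called in the comparison. *Sox12* against the chambers turned to -0.0139, -0.0505 and -0.0773 in the AVC with TMM normalization, DESeq2 size factors and the offset for the first 2 bases, and to -0.44, -0.46, -0.53 and, with the added offset for G and C bases, -0.33 in the OFT. In the null *Sox4* turned to 0.0786, 0.0735, 0.37 and 0.33 under the same 4 settings, and *Sox12* to -1.13 when only its 3'-most tag was used. *Sox6* turned to 7.21 without its most abundant tag type, where its exact p was 0.000836. The AVC listed no other *Sox6* tag type, so this sign was fixed in advance. In the OFT against the AVC *Sox11* turned to -5.52 with 3'-most tags and *Sox6* to -0.26 with all GENCODE transcripts. In the ventricles against the atria *Sox9* turned to -0.25 with TMM normalization, -0.24 with DESeq2 size factors, -0.21 with totals without haemoglobin and -0.0901 with the G and C offset. *Sox12* turned there to 5.91 without its most abundant tag type, the only one of this gene that the atria listed, so its sign was fixed as well. Counts of called SOX genes moved as follows. The share of all genes called in the same setting and direction is given in brackets. A dispersion of 0.4 left 4 higher in the AVC against the chambers (20.3%), and 0 higher (3.9%) and 0 lower (2.36%) in the null. It left 0 higher in the OFT against the AVC (2.46%), and 0 higher (4.03%) and 0 lower (4.28%) between the chambers. The first-bases offset also left 4 higher in the AVC (28.9%). TMM normalization (17.7%) and DESeq2 size factors (17.9%) each called 1 lower in the OFT against the chambers. In the null 2 were called higher with a dispersion of 0.05 (18.8%), with the G and C offset (15.9%) and without the most abundant tag type (25.7%). In that last setting the 2 were *Sox6* and *Sox17*, and *Sox18*, with a single tag type, dropped out. Both directions were fixed in advance, since the AVC listed a single tag type of *Sox6* and of *Sox17* and lost it. After Benjamini-Hochberg adjustment 0 were called higher (5.06%). With 3'-most tags 4 were called lower (17.3%), and without the most abundant tag type 1 was (11.8%). In the OFT against the AVC adjustment left 0 higher (1.24%), and a filter of at least 50 tags per gene left 1 (1.18%). Without the most abundant tag type 1 was called higher (11.8%). This was *Sox6* (log2 ratio 7.51, exact p = 0.000293), since *Sox17* and *Sox18* had a single tag type there and dropped out. The direction of *Sox6* was again fixed, as the AVC was left without *Sox6* tags. Between the chambers adjustment (3.47% higher, 2.8% lower) and more than 10 tags per tag type (12.8%, 10.1%) each left 0 in either direction. So did at least 50 tags per gene (4.98%, 1.71%) and 5 tags for a missing tag type (4.03%, 1.44%). Leaving out the most abundant tag type left 0 lower (16.2%), and a dispersion of 0.05 gave 2 higher (19.8%). With 3'-most tags alone the summed level of the 10 genes was 475 TPM in the AVC, 372 TPM in the OFT, 76.3 TPM in the atria, 62.0 TPM in the ventricles and 220.5 TPM in the null. The cause of these shifts was not tested, apart from settings that by construction use fewer tags or genes. With its tag types beyond 1700 bases alone *Sox4* became called higher in the OFT against the chambers and lower in the null (log2 ratio -2.33). That split was chosen after the data were seen.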

Other observations

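Of 10 further SOX genes looked for, 4 had tags and the other 6 (*Sox1*, *Sox3*, *Sox14*, *Sox15*, *Sox21* and *Sry*) had none in any library. *Sox10*, a neural crest gene, stood at 1.98 TPM in the AVC and 2.31 TPM in the null and was not listed elsewhere. *Sox2* stood at 1.15 TPM in the AVC, 1.33 TPM in the OFT and 1.77 TPM in the null, *Sox8*, a group E gene, at 1.52 TPM in the OFT alone, and *Sox30* at 2.57 TPM in the atria alone. In the null *Sox10* rested on 30 tags and *Sox2* on 23, and the other levels on 7 to 12 tags, where a tag type needs 6 to be listed. Summed over the 10 SOX genes followed above, the level was 1133 TPM in the AVC, 881 TPM in the OFT, 237 TPM in the atria, 190 TPM in the ventricles and 719 TPM in the null.

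Of the 44 SOX tag types listed in the null, 7 were listed in no wild type library. The null library was also the deepest and listed 79271 tag types in all, against 32822 to 58407 in the others. The share over all genes was not computed, so the 7 cannot be read as particular to SOX genes. Epicardial markers summed to 302 TPM in the AVC, 133 TPM in the OFT, 351 TPM in the atria, 330 TPM in the ventricles and 216 TPM in the null. Cardiomyocyte markers summed to 25417, 26853, 9333, 24147 and 22192 TPM in the same order. Neural crest and neural markers summed to 104, 50.9, 171, 164 and 165 TPM, and markers of pharyngeal epithelium to 74.4, 221, 40.9, 40.5 and 48.8 TPM. Erythroid markers summed to 2436, 3087, 215449, 46741 and 27398 TPM, and 9 of 11 were called lower in the AVC than in the chambers, against 8.12% of all genes.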
